A study of Mus musculus with 9 samples.

Results

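The enzymes that write, copy and remove DNA methylation were followed through 3 mouse myeloid cell lines. The set holds 10 genes, taken by symbol from the 54347 genes of the count table, by a rule that uses no measured value. They are the DNA methyltransferase genes *Dnmt1*, *Dnmt3a* and *Dnmt3b*, the *Dnmt1* partner *Uhrf1*, the TET dioxygenase genes *Tet1*, *Tet2* and *Tet3*, the isocitrate dehydrogenase genes *Idh1* and *Idh2*, and *Wt1*. Many of these genes are mutated in human acute myeloid leukemia (AML).

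Poly-A RNA was sequenced from 3 libraries of each line, numbered 1 to 3. The Hox-WT and Hox-URE lines are progenitors, made from lineage-negative, c-Kit+ bone marrow cells immortalized with a Hoxb8 fusion to the estrogen receptor, which is active while estradiol is in the medium. The donor of Hox-WT was wild type. That of Hox-URE was a UREd/d mouse, in which the upstream regulatory element (URE), an enhancer that drives *Spi1*, is deleted. *Spi1* encodes the transcription factor PU.1. URE-AML, the line labelled B22, was grown from AML blasts of a mouse with the same deletion. The study's reagent list credits Hox-WT to an earlier publication, and Hox-URE and URE-AML to the study itself. All 3 lines were cultured with IL-3, IL-6, SCF and estradiol, URE-AML included. Each genotype and stage is 1 line, so genotype, stage and the history of a line cannot be told apart, and the labels do not tie the 3 libraries of a line to separate cultures. The study's UREd/d mice are listed as C57BL/6 J, and an age is given for mice whose primary cells were sorted but not for the donors of these 3 lines. The p-values therefore measure only the spread between libraries of a line, which may be technical. The comparisons ask how the methylation machinery differs without the enhancer, before and in leukemia. Below, Hox-URE against Hox-WT is the progenitor pair, URE-AML against Hox-WT the leukemic pair, and URE-AML against Hox-URE the URE-deleted pair, and differences are signed in that order.

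Total counts were 20331064 to 28588718 per library, and 3 counts, taken as the floor of detection, stood at 0.104 to 0.153 CPM (counts scaled to the library total and a TMM factor). The floors cover counting error only, and the intervals of fold changes also hold the spread between libraries. *Spi1* had 2791 to 2932 counts in Hox-WT, 0 or 1 in Hox-URE, and 62 to 148 for URE-AML. *Hoxb8* was at 0 in all 3 URE-AML libraries, against 1725 to 3481 counts in the Hox lines. Of the myeloid markers, *Ctsg*, *Elane*, *Mpo* and *Kit* were present in all libraries, *Mpo* with 42 to 279 counts in Hox-URE. The leukocyte marker *Ptprc* (CD45) had 4053 to 4753 counts in Hox-WT and 0 or 1 in both other lines, and *Cd34* had 0 or 1 in URE-AML. Of 14 markers of erythroid, lymphoid, stromal, mesothelial and endothelial cells, 8 were at or under the floor in either Hox line and 10 in URE-AML. Their summed level was 186 to 191 CPM for Hox-WT, 236 to 244 for Hox-URE and 658 to 887 for URE-AML. Most of each sum was *Pecam1* alone, with 159 to 168, 216 to 222 and 622 to 834 CPM. *Pecam1* and *Lrrn4* held the highest counts among the 14 markers, while *Cd3e*, *Col3a1*, *Msln* and *Krt19* were at 0 in every library. Their part in the results below was not tested.

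In mammals, methyl groups sit mainly on the cytosine of CpG dinucleotides. DNMT3A and DNMT3B place them de novo, and DNMT1, guided by UHRF1 to the half-methylated DNA behind the replication fork, copies them to the daughter strand. TET enzymes oxidize 5-methylcytosine as the first step of its removal and need 2-oxoglutarate, which IDH1 makes in the cytosol and IDH2 in mitochondria. Mutant forms of either IDH enzyme make 2-hydroxyglutarate, which inhibits TET enzymes, and WT1 can bring TET2 to its target genes. The present data are levels of RNA, which give neither mutations nor DNA methylation nor protein.

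RefSeq promoters on GRCm38.p6, spanning 250 bases before and 50 after a start, were found for 9 of the 10 genes, with 15 starts in all since *Dnmt1*, *Dnmt3a*, *Uhrf1* and *Idh1* had more than 1. The gene level of the table does not show which start was used. The promoters of the 4 genes on which most of the results turn are printed below as the 250 bases before the start, 5′ to 3′ on the strand of the gene. Capitals mark CpG dinucleotides, the site at which these enzymes act.
Dnmt3b, chr2:153649199-153649448, plus strand: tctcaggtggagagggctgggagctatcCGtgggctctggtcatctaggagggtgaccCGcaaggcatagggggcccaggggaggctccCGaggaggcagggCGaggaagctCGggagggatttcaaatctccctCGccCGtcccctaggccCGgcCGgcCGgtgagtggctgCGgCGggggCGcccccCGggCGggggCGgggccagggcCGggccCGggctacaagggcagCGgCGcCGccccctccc
Tet1, chr10:62887325-62887574, minus strand: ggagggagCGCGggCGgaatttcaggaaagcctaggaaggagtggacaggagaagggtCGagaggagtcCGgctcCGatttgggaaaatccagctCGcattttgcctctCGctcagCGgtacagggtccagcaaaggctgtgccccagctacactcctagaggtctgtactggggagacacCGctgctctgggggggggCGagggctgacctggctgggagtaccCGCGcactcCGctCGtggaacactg
Idh2, chr7:80115351-80115600, minus strand: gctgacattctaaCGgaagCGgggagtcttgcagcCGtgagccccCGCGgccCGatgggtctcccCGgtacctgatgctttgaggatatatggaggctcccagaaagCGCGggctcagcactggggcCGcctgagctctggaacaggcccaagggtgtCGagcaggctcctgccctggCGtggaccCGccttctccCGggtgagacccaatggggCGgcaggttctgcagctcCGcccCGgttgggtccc
Tet2, chr3:133544391-133544640, minus strand: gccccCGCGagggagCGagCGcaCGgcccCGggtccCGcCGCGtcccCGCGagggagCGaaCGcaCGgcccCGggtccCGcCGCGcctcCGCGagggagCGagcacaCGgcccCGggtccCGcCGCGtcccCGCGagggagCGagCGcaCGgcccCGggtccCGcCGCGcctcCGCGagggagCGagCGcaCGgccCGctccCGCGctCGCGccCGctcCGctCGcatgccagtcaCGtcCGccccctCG

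These stretches held 21 CpG at *Dnmt3b*, 15 at *Tet1*, 17 at *Idh2* and 51 at *Tet2*. Over the whole 300 bases, 14 of the 15 promoters held more CpG than the median of 7 over 32851 mouse promoters, with 57 at *Tet2* and 2 at the upstream start of *Dnmt1*. Since PU.1 and its partner RUNX1 were the subject of the study, 3 motifs were searched on both strands: GAGGAAGT (PU.1-type), GGAAGT (the ETS core, contained in the first) and TGTGGT (RUNX). GAGGAAGT was found in 0 of the 15 promoters, against 3.2% of all promoters. GGAAGT was found in 2, 1 of *Dnmt1* and 1 of *Uhrf1*, against 23.8% of all promoters, and TGTGGT in 1 of *Uhrf1*, against 16.8%. Such matches are letters in a window, and neither a match nor its absence shows whether a factor binds.

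Of the 10 genes, 9 passed the filter on low counts. A call needed an adjusted p below 0.05 (edgeR) together with a fold change above 1.5. In the progenitor pair, 6 of the 9 were called lower (*Dnmt1*, *Uhrf1*, *Dnmt3a*, *Dnmt3b*, *Tet1* and *Idh2*) and 0 higher, where 15.9% of the 13082 genes tested were called lower, 21.3% higher and 37.2% in either direction. In the leukemic pair, 4 were called lower (*Dnmt3a*, *Dnmt3b*, *Tet1* and *Idh2*) and 1 higher (*Tet2*), beside 20.2% lower, 23% higher and 43.2% in either direction over all genes. In the URE-deleted pair, 2 were called higher (*Tet2* and *Uhrf1*) and 1 lower (*Idh2*), beside 20.4%, 22.4% and 42.7%. *Tet1* passed the filter through Hox-WT alone and so could only be called lower. The median log2 fold change of the 8 other genes was -0.86, -0.50 and 0.13 in the 3 comparisons, and that of all genes tested was within 0.01 of 0. Any pair shares 1 line's libraries with each other pair, so that the 3 comparisons are not independent.

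**Figure D1:**
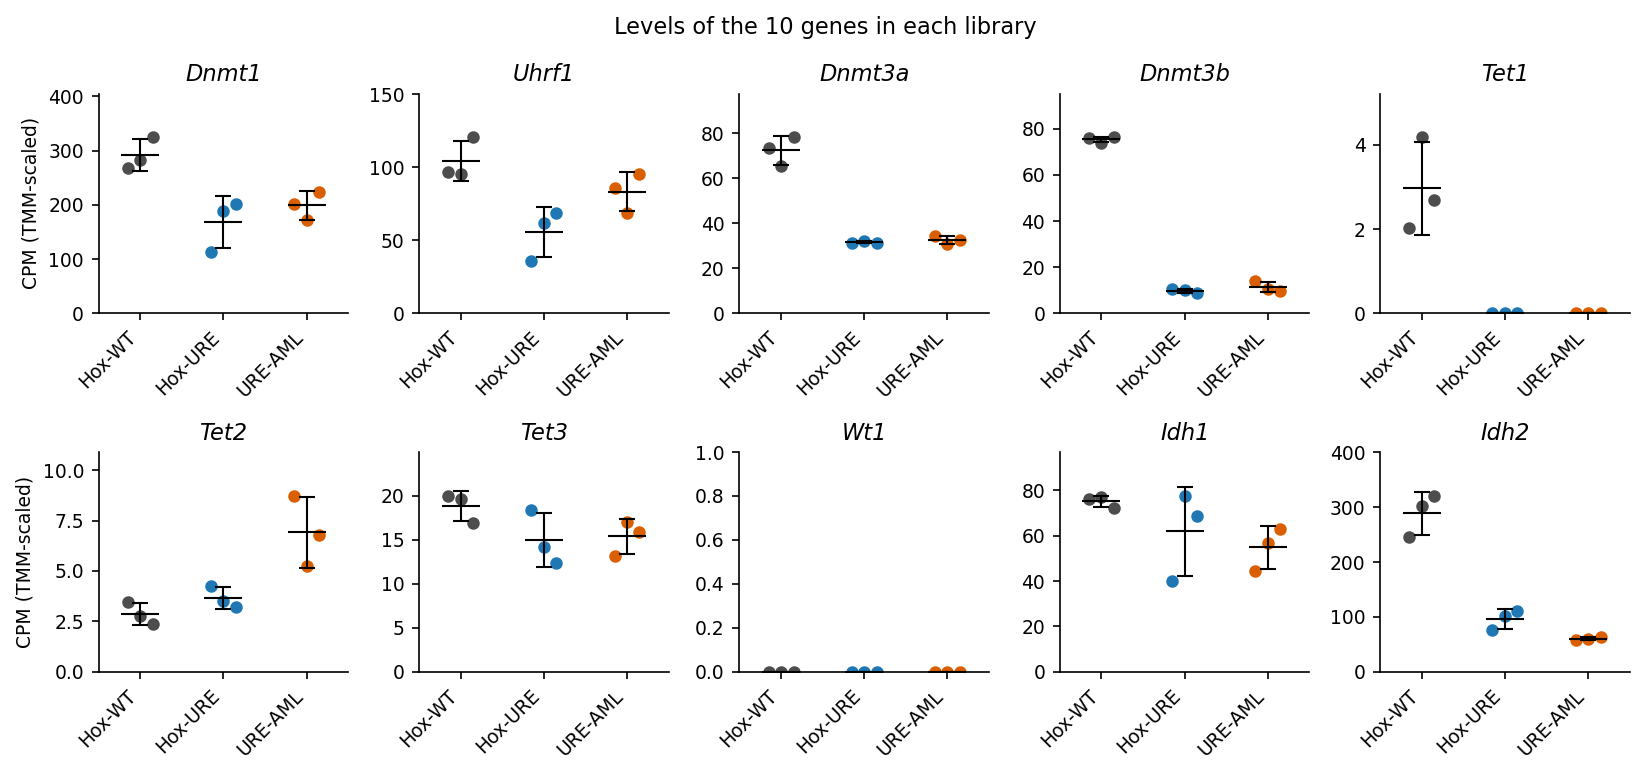
Level of each gene in every library (points, libraries 1 to 3 from left to right) with the mean and SD of each line, in CPM on a linear axis from 0 that differs between panels. *Dnmt3b* lay at 74.1 to 76.3 CPM in Hox-WT and at 8.78 to 13.9 CPM in the other lines, *Tet1* was at 0 in both URE-deleted lines, and *Wt1* was at 0 in all 9 libraries.

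The de novo methyltransferase genes were lower in both URE-deleted lines, and *Dnmt3b* by more than *Dnmt3a*. *Dnmt3b* (chromosome 2, 153649450 to 153687730, plus strand, GRCm38) had 76.0, 74.1 and 76.3 CPM in Hox-WT libraries 1 to 3. It had 10.4, 10.3 and 8.78 CPM in Hox-URE and 13.9, 10.5 and 9.82 CPM in URE-AML. The lowest Hox-WT library thus stood far above the highest of the other lines, and the URE-deleted lines overlapped each other. Lines did not overlap for 60.3% of all genes tested in the progenitor pair, 67.6% in the leukemic pair and 62.8% in the URE-deleted pair. The log2 fold change was -2.94 ± 0.14 (SE; adjusted p = 1.48e-07) in Hox-URE, a 7.67-fold lower level, and -2.72 ± 0.14 (adjusted p = 1.09e-07) in URE-AML, 6.61-fold lower. Between the URE-deleted lines it was 0.21 (95% interval -0.10 to 0.53, adjusted p = 0.217). In bulk RNA, fewer cells that express a gene and less RNA per cell cannot be told apart.

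*Dnmt3a* (chromosome 12, 3806007 to 3914443, plus strand), the member of the pair most often mutated in AML, had 73.4, 65.7 and 78.2 CPM in Hox-WT, 31.2, 32.0 and 31.4 in Hox-URE and 34.2, 30.7 and 32.5 in URE-AML. All Hox-WT libraries lay above all others, and the URE-deleted lines overlapped. It was lower by 2.30-fold in Hox-URE (log2 fold change -1.20 ± 0.10, adjusted p = 4.2e-06) and by 2.23-fold in URE-AML (-1.16 ± 0.10, adjusted p = 3.19e-06). Between these lines the log2 difference was 0.04, with an interval of -0.17 to 0.26. A gene on the opposite strand overlaps each of *Dnmt3a*, *Dnmt3b*, *Tet2* and *Tet3* in the annotation. The library kit keeps strand, but whether strand was used in the counting was not given in the sources used here.

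*Dnmt3l*, which encodes a partner of the de novo enzymes that has no catalytic activity of its own and works mainly in germ cells and early embryos, went the other way. It had 29, 22 and 11 counts in Hox-WT, 100, 100 and 53 in Hox-URE and 327, 302 and 392 in URE-AML. The 3 lines did not overlap. Its level was low, with a mean of 0.751 CPM in Hox-WT, of 3.50 in Hox-URE and of 14.8 in URE-AML. It rose by 2.23 ± 0.32 on the log2 scale in the progenitor pair (adjusted p = 0.000269), 4.30 ± 0.33 in the leukemic pair (adjusted p = 1.85e-06) and 2.07 ± 0.28 in the URE-deleted pair (adjusted p = 0.000139).

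The maintenance genes *Dnmt1* and *Uhrf1* were lower in Hox-URE. *Dnmt1* (chromosome 9, 20907209 to 20959888, minus strand) had 269, 282 and 324 CPM in Hox-WT, 113, 189 and 201 in Hox-URE and 201, 172 and 224 in URE-AML. Library 1 of Hox-URE stood well under its other two, yet all 6 URE-deleted libraries lay under all Hox-WT libraries. Its log2 fold change was -0.80 ± 0.20 in Hox-URE (1.74-fold lower, adjusted p = 0.0063). In URE-AML it was -0.55 ± 0.20 (1.47-fold lower, adjusted p = 0.0337), which passed the p but not the fold threshold. Between the URE-deleted lines the difference was 0.25, with an interval of -0.19 to 0.69.

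*Uhrf1* (chromosome 17, 56303321 to 56323486, plus strand) was, like *Dnmt1*, lowest in Hox-URE library 1. It had 96.9, 95.2 and 120 CPM in Hox-WT, 36.0, 61.7 and 68.8 in Hox-URE and 85.6, 68.8 and 95.3 in URE-AML. Hox-URE lay under Hox-WT without overlap, whereas URE-AML overlapped both other lines. On the log2 scale, the difference was -0.91 ± 0.22 in Hox-URE (1.88-fold lower, adjusted p = 0.00586) and -0.32 in URE-AML (interval -0.81 to 0.16, adjusted p = 0.231). URE-AML was called above Hox-URE by 0.59 ± 0.22 (adjusted p = 0.0422) with a fold just over the threshold, a call lost in 12 of 19 alternative fits. Without Hox-URE library 1 that difference was 0.35 (adjusted p = 0.0712). The lower levels in the progenitor pair were still called without that library, at -0.59 for *Dnmt1* (adjusted p = 0.00286) and -0.68 for *Uhrf1* (adjusted p = 0.00379).

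Because both genes are expressed mostly in dividing cells, 26 genes of proliferation and S phase were read beside them. In the progenitor pair 8 were called lower and 1 higher, in the leukemic pair 6 lower and 3 higher, and in the URE-deleted pair 2 lower and 6 higher. Lower calls were 30.8%, 23.1% and 7.69% of them, beside 15.9%, 20.2% and 22.4% of all genes tested. Higher calls were 3.85%, 11.5% and 23.1%, beside 21.3%, 23% and 20.4%. The summed level of the 26 genes was 6845 to 7341 CPM for Hox-WT, 5343 to 5860 for Hox-URE and 5856 to 6400 for URE-AML. The lowest sum was that of Hox-URE library 1, which also had the lowest *Dnmt1*, *Uhrf1* and *Mki67* (174 CPM, against 324 and 348 in libraries 2 and 3). *Mki67*, a marker of cycling cells, differed by 0.04 on the log2 scale between Hox-URE and Hox-WT (adjusted p = 0.908) and was 0.90 ± 0.24 higher in URE-AML (adjusted p = 0.00823). The replication licensing gene *Mcm7* was lower in both, by 0.92 and 0.68 on the log2 scale. *Ccnb1*, the gene called higher in Hox-URE, was 1.02 higher there, and *Ccne1* and *Top2a* were 1.49 and 0.85 higher in URE-AML. Summed with its near-identical copy *Pcna-ps2*, which had 54.2 CPM in URE-AML and under 0.4 in the Hox lines, the replication clamp gene *Pcna* was at -0.53 in place of -0.76 in the leukemic pair, under the fold threshold, which leaves 5 lower. The part of cell division in the *Dnmt1* and *Uhrf1* differences was not tested.

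**Figure D2:**
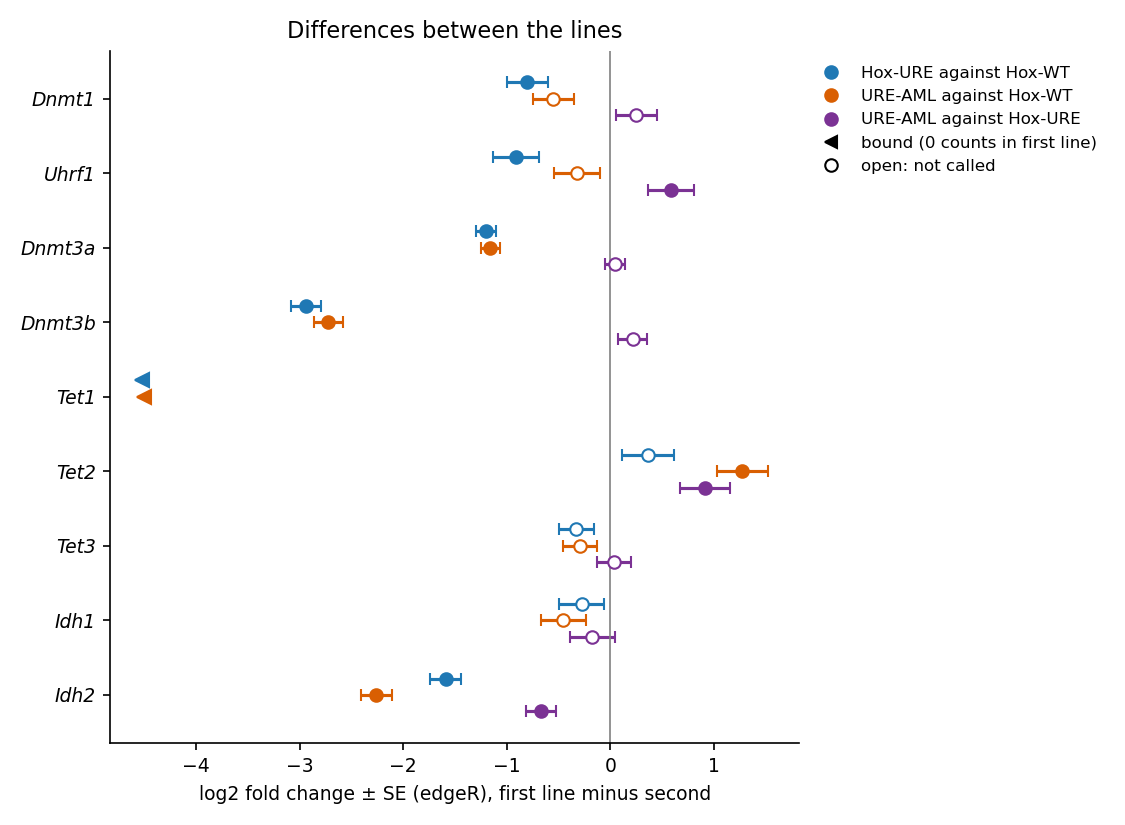
Log2 fold change (edgeR) with its SE for 9 genes in the 3 comparisons. Filled points are called and open points are not. Triangles give *Tet1* as a bound, since its libraries were all at 0 in the first line. The de novo genes and *Idh2* lay left of 0 against Hox-WT in both URE-deleted lines, and *Tet2* lay right of 0 in URE-AML.

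The TET genes differed in opposite directions. *Tet1* (chromosome 10, 62804570 to 62908996, minus strand), known best from embryonic stem cells, had 54, 117 and 78 counts in Hox-WT, which is 2.97 ± 1.10 CPM (SD, n = 3). It had 0 counts in all 6 libraries of Hox-URE and URE-AML. Against the floor of 3 counts per library, its level in Hox-URE was at least 23.0-fold lower, and that in URE-AML at least 22.7-fold lower. A count of 0 allows up to 0.153 CPM in Hox-URE library 3, where the floor was highest. With both URE-deleted lines at 0, no fold between them is reported.

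*Tet2* (chromosome 3, 133463679 to 133545139, minus strand), the TET gene most often mutated in AML, was higher in URE-AML. It had 92, 77 and 69 counts in Hox-WT, 117, 85 and 63 in Hox-URE and 216, 110 and 158 in URE-AML. In CPM this was 3.45, 2.75 and 2.39, then 4.26, 3.52 and 3.22, then 8.72, 5.23 and 6.78. All URE-AML libraries stood above all others in CPM, with the widest spread of the 3 lines, and the Hox lines overlapped. Its log2 fold change was 1.27 ± 0.25 against Hox-WT (2.42-fold higher, adjusted p = 0.00132) and 0.91 ± 0.25 against Hox-URE (1.88-fold, adjusted p = 0.00894). Between Hox-URE and Hox-WT it was 0.36 (interval -0.19 to 0.92, adjusted p = 0.248).

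*Tet3* (chromosome 6, 83362373 to 83459084, minus strand) was called in no comparison. It had 20.0, 19.6 and 16.9 CPM in Hox-WT, 18.3, 14.2 and 12.4 in Hox-URE and 13.2, 17.0 and 15.9 in URE-AML, and all 3 lines overlapped. Its log2 fold change was -0.33 (interval -0.70 to 0.04) in the progenitor pair and -0.29 (-0.66 to 0.07) in the leukemic pair, which leaves room for a modest decrease in either. *Wt1* (chromosome 2, 105126529 to 105173616, plus strand), which is often raised in human AML, had 0 counts in all 9 libraries, so that no fold or test was possible. Its level was under the same 0.104 to 0.153 CPM in every library.

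Per kilobase of exon, *Tet3* held 75.8% of the summed TET level for Hox-WT, 80.4% for Hox-URE and 69.1% for URE-AML. The share of *Tet2* was 11.4%, 19.6% and 30.9%, and that of *Tet1* 12.8% in Hox-WT and 0 in both other lines. The sum itself was 1.49 ± 0.15, 1.11 ± 0.22 and 1.33 ± 0.02 CPM per kilobase (SD, n = 3). The ratio of *Tet2* to *Tet3* was 0.139 to 0.171 for Hox-WT, 0.230 to 0.258 for Hox-URE and 0.304 to 0.656 for URE-AML, without overlap. With 3 libraries against 3, an exact two-sided permutation test of such a ratio cannot go below p = 0.1.

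**Figure D3:**
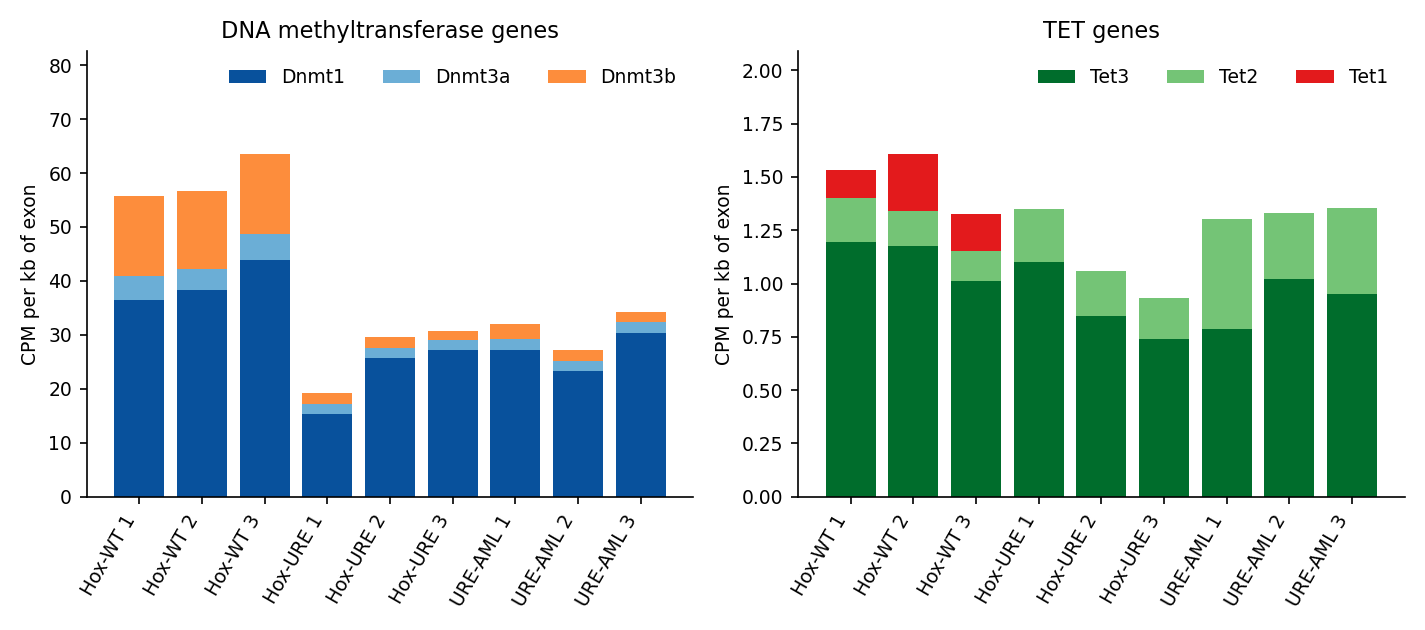
Stacked levels per kilobase of exon of the DNA methyltransferase genes (left) and TET genes (right) in each library, in CPM per kilobase on a linear axis from 0. The *Dnmt3b* part averaged 25.3% of the bar in Hox-WT and 7.67% and 7.22% in Hox-URE and URE-AML, and the *Tet1* part was present in Hox-WT alone among the 3 lines.

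Among the DNA methyltransferases, the summed level was 58.7 ± 4.27 CPM per kilobase for Hox-WT, 26.5 ± 6.39 for Hox-URE and 31.1 ± 3.59 for URE-AML (SD, n = 3). *Dnmt1* held most of it in every library, at 65.4% to 69.1% in Hox-WT and 79.6% to 88.7% in the other lines. The ratio of *Dnmt3b* to *Dnmt3a* was 3.18 to 3.67 for Hox-WT, 0.913 to 1.09 for Hox-URE and 0.985 to 1.33 for URE-AML, so that *Dnmt3b* led *Dnmt3a* in every library in Hox-WT alone of the 3 lines. The ratio of *Dnmt3a* to *Dnmt1* did overlap between Hox-WT (0.103 to 0.121) and Hox-URE (exact permutation p = 0.4), being 0.123 in Hox-URE library 1. In URE-AML this ratio was 0.0643 to 0.0790, under Hox-WT without overlap (exact permutation p = 0.1). The ratio of *Uhrf1* to *Dnmt1* was 0.584 to 0.643 for Hox-WT, 0.553 to 0.594 for Hox-URE and 0.692 to 0.739 for URE-AML. URE-AML thus lay above both Hox lines without overlap (exact permutation p = 0.1, the smallest possible).

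The IDH genes parted. *Idh2* (chromosome 7, 80094846 to 80115392, minus strand), the mitochondrial enzyme, had 245, 302 and 321 CPM in Hox-WT, 75.7, 101 and 112 in Hox-URE and 57.9, 60.2 and 63.1 in URE-AML. The 3 lines did not overlap. The log2 fold change was -1.59 ± 0.15 in Hox-URE (3.01-fold lower, adjusted p = 1.32e-05) and -2.26 ± 0.15 in URE-AML (4.79-fold lower, adjusted p = 7.53e-07). URE-AML was lower than Hox-URE by 0.67 ± 0.15 on the log2 scale (1.59-fold, adjusted p = 0.00291). That last call was lost under scaling by library size alone (-0.56) and without Hox-URE library 3 (-0.55), where the fold fell under 1.5.

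*Idh1* (chromosome 1, 65158616 to 65186500, minus strand), the cytosolic enzyme, was called in no comparison. It had 76.0, 77.2 and 72.4 CPM in Hox-WT, 40.0, 77.6 and 68.6 in Hox-URE and 44.6, 56.9 and 63.1 in URE-AML. URE-AML lay under Hox-WT without overlap, while Hox-URE library 1 stood apart from its other two. The log2 fold change was -0.28 (interval -0.76 to 0.20) in Hox-URE and -0.45 (-0.93 to 0.02, adjusted p = 0.0956) in URE-AML. The ratio of *Idh2* to *Idh1* per kilobase was 3.45 to 4.74 for Hox-WT, 1.39 to 2.03 for Hox-URE and 1.07 to 1.39 for URE-AML.

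Ranked by level per kilobase, the order in Hox-WT was *Idh2* (112 CPM per kilobase), *Dnmt1* (39.6), *Idh1* (27.1), *Uhrf1* (24.5), *Dnmt3b* (14.8), *Dnmt3a* (4.35), *Tet3* (1.13), *Tet1* (0.192) and *Tet2* (0.170). The libraries of *Idh1* and *Uhrf1* overlapped, as did those of *Tet1* and *Tet2*. In Hox-URE, *Idh2* (37.2) still led, *Dnmt1* (22.7), *Idh1* (22.4) and *Uhrf1* (13.03) overlapped as neighbours, and *Dnmt3b* (1.92) could not be told from *Dnmt3a* (1.89). In URE-AML, *Dnmt1* (27.0), *Idh2* (23.3), *Idh1* (19.8) and *Uhrf1* (19.5) each overlapped the next, followed by *Dnmt3b* (2.23), *Dnmt3a* (1.95), *Tet3* (0.920) and *Tet2* (0.410). With the longest transcript as length, *Tet1* and *Tet2* changed places in Hox-WT and *Dnmt3a* and *Dnmt3b* in both other lines.

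The 9 genes tested sit on 9 chromosomes, whose genes had median log2 fold changes of -0.09 to 0.13 over the 3 comparisons. Of the 9, *Uhrf1* alone had a near-identical copy in the annotation (*Gm5648*, 98.3% over 1590 bases), which had under 0.02 CPM in each line. Genes whose pattern over the 9 libraries was most like a member's are given as a description, without a p, with their means in the order Hox-WT, Hox-URE, URE-AML. By Pearson's r of log2 CPM among 5826 genes, *Ncs1* came first for *Dnmt3b* (r = 0.998), with 10.2, 0 and 0.0269 CPM. For *Dnmt3a* it was *Vps18* (r = 0.996), with 87.4, 35.3 and 36.4 CPM, and for *Idh2* *Prdm1* (r = 0.996), with 5.71, 0.204 and 0.0143. For *Tet2* it was *Trem1* (r = 0.981), with 21.3, 33.0 and 85.8 CPM. For *Tet1*, whose pattern is presence in 1 line, r was 1.00 for *Inhbb*, at 0.774 CPM in Hox-WT and 0 elsewhere. Libraries of a line share their cells of origin, so that such an r rests on 3 lines rather than 9 points.

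Cofactors of methylation moved in both directions. Of 12 tested, 3 were called higher and 4 lower in the progenitor pair, 2 and 6 in the leukemic pair, and 2 and 1 in the URE-deleted pair. Their median log2 fold changes were -0.24, -0.48 and -0.13. Counting both directions, 58.3%, 66.7% and 25% of them were called, beside 37.2%, 43.2% and 42.7% of all genes tested. With *Pcna*, a member of this list too, summed with its copy, 5 were lower in the leukemic pair and the median there was -0.41. *Hells*, a remodeler needed for methylation of repeats, had 130, 95.4 and 112 CPM in Hox-WT, 53.6, 55.8 and 63.6 in Hox-URE and 59.3, 48.5 and 59.1 in URE-AML. It fell by 0.96 ± 0.13 and 1.02 ± 0.13 on the log2 scale against Hox-WT (adjusted p = 0.000184 and 9.66e-05). *Cdca7*, its activator, fell by 1.35 ± 0.12 and 1.56 ± 0.12 (adjusted p = 7.55e-06 and 1.63e-06), and *Trim28*, a corepressor that silences retroelements, by 1.07 ± 0.10 and 1.17 ± 0.10 (adjusted p = 9.61e-06 and 3.22e-06). *Uhrf2*, the paralog of *Uhrf1*, was higher in Hox-URE by 0.87 ± 0.09 (adjusted p = 3.73e-05), and *Zfp57*, which guards imprints, was higher at low level in both (1.20 and 1.49). *Dppa3* was at 0 in every library.

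**Figure D4:**
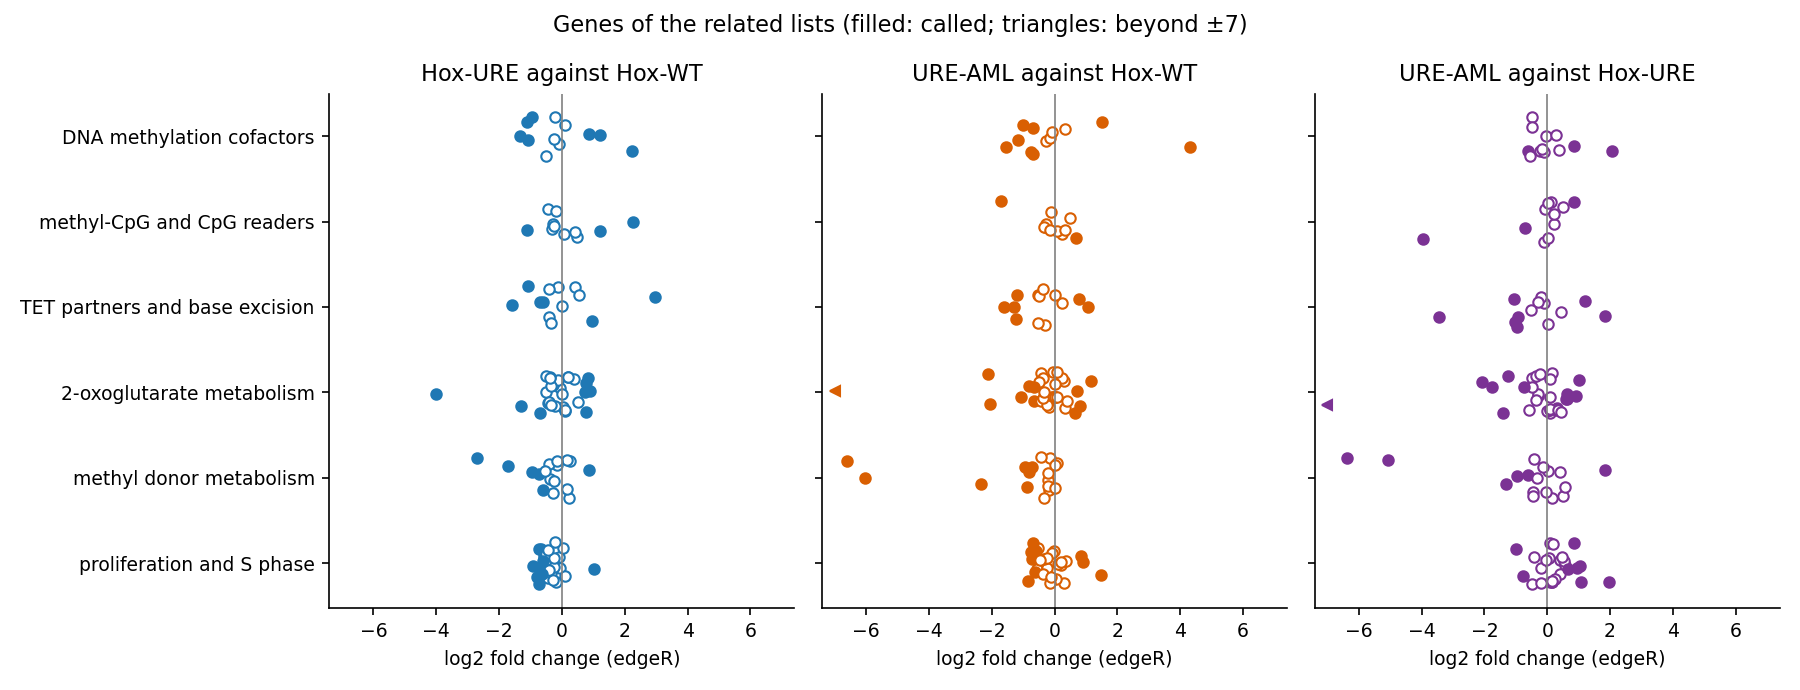
Log2 fold change (edgeR) of every tested gene of 6 lists in the 3 comparisons. Filled points are called, open points are not, vertical scatter within a list has no meaning, and the triangles are *Bcat1*, beyond the axis. Most lists had called genes on both sides of 0.

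A list of 11 readers held genes for proteins that bind methylated CpG and for some that bind unmethylated CpG. Of these 11, 2 were called higher and 1 lower in the progenitor pair and 1 and 1 in the leukemic pair. In the URE-deleted pair it was 1 and 2, and the medians were -0.18, -0.11 and 0.04. Those called in either direction were 27.3%, 18.2% and 27.3% of the list, beside 37.2%, 43.2% and 42.7% of all genes tested. The methyl-CpG-binding repressor *Zbtb4* was the reader with the widest range. It had 48, 42 and 29 counts in Hox-WT, 210, 149 and 130 in Hox-URE and 9, 12 and 9 in URE-AML, so the lines did not overlap. It was higher in Hox-URE by 2.25 ± 0.28 (adjusted p = 9.12e-05) and lower in URE-AML by 1.70 ± 0.32 on the log2 scale (adjusted p = 0.00109). *Mbd2* was higher in URE-AML by 0.70 ± 0.10 (adjusted p = 0.000139). *Kdm2b*, which binds unmethylated CpG, fell by 1.11 ± 0.11 in Hox-URE (adjusted p = 1.86e-05). *Mbd4* and *Zbtb33* were called in no comparison.

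Past the TET step, oxidized bases are cut out and replaced by base excision repair. Of 13 genes tested in a list of TET partners and repair genes, 2 were called higher and 4 lower in the progenitor pair and again in the leukemic pair. In the URE-deleted pair 2 were called higher and 5 lower, and the medians were -0.34, -0.49 and -0.30. The share called in either direction was 46.2%, 46.2% and 53.8%, beside 37.2%, 43.2% and 42.7% of all genes tested. The abasic endonuclease gene *Apex1* fell by 1.09 ± 0.10 in Hox-URE and 1.19 ± 0.10 in URE-AML (adjusted p = 8.3e-06 and 2.69e-06), and *Parp1* fell by 1.29 ± 0.14 in URE-AML (adjusted p = 2.68e-05). *Neil1*, a glycosylase gene, was higher in both (0.97 ± 0.17 and 0.77 ± 0.17). *Gadd45a*, a stress gene linked to active demethylation, had 140, 187 and 187 counts in Hox-WT, 1380, 940 and 1045 in Hox-URE and 109, 95 and 98 in URE-AML. It was 2.95 ± 0.15 higher in Hox-URE (adjusted p = 2.33e-07), with -0.49 in URE-AML.

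*Tdg*, the glycosylase that removes bases oxidized by TET enzymes, depended on how near-identical copies were treated. It had 183, 161 and 160 CPM in Hox-WT, 133, 105 and 94.8 in Hox-URE and 60.9, 55.8 and 47.0 in URE-AML, with log2 fold changes of -0.60 ± 0.14 and -1.62 ± 0.14 against Hox-WT. Its processed copies *Gm9855* (99.2% identical) and *Tdg-ps* (98.7%) had 45.5 and 15.1 CPM in URE-AML and under 0.2 CPM in the Hox lines. Summed with these copies, *Tdg* was -0.60 in Hox-URE and -0.55 in URE-AML, with 0.05 between the URE-deleted lines in place of -1.02. The lower calls of this list were then 3 in the leukemic and 4 in the URE-deleted pair, and its median in the latter was -0.19. Whether the copies or *Tdg* itself gave these reads was not tested.

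Around the IDH step, the 31 genes of 2-oxoglutarate metabolism had 5 called higher and 3 lower in the progenitor pair, 4 and 7 in the leukemic pair, 5 and 6 in the URE-deleted pair, with medians of -0.14, -0.09 and 0.07. Called in either direction were 25.8%, 35.5% and 35.5% of them, beside the 37.2%, 43.2% and 42.7% of all genes tested. *Bcat1*, which transfers amino groups from branched-chain amino acids to 2-oxoglutarate, had 2190, 1894 and 2487 counts in Hox-WT, 178, 90 and 83 in Hox-URE and 0, 1 and 0 in URE-AML. The lines did not overlap. It fell by 4.02 ± 0.22 on the log2 scale in Hox-URE (adjusted p = 3.66e-07), and in the leukemic pair it was lower by at least 601-fold (adjusted p = 9.52e-09). *Psat1* and *Gpt2*, whose reactions yield 2-oxoglutarate from glutamate, were lower in the leukemic pair by 2.12 ± 0.12 and 2.07 ± 0.25 (adjusted p = 1.61e-07 and 5.45e-05), and *Mdh2*, mitochondrial malate dehydrogenase, was higher by 0.70 ± 0.09 (adjusted p = 0.000106).

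*Aco1*, cytosolic aconitase, which makes isocitrate from citrate, was higher in Hox-URE by 0.76 ± 0.13 (adjusted p = 0.000719), while *Idh2* was lower there. In URE-AML it was lower by 0.66 ± 0.13 (adjusted p = 0.00151).

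**Figure D5:**
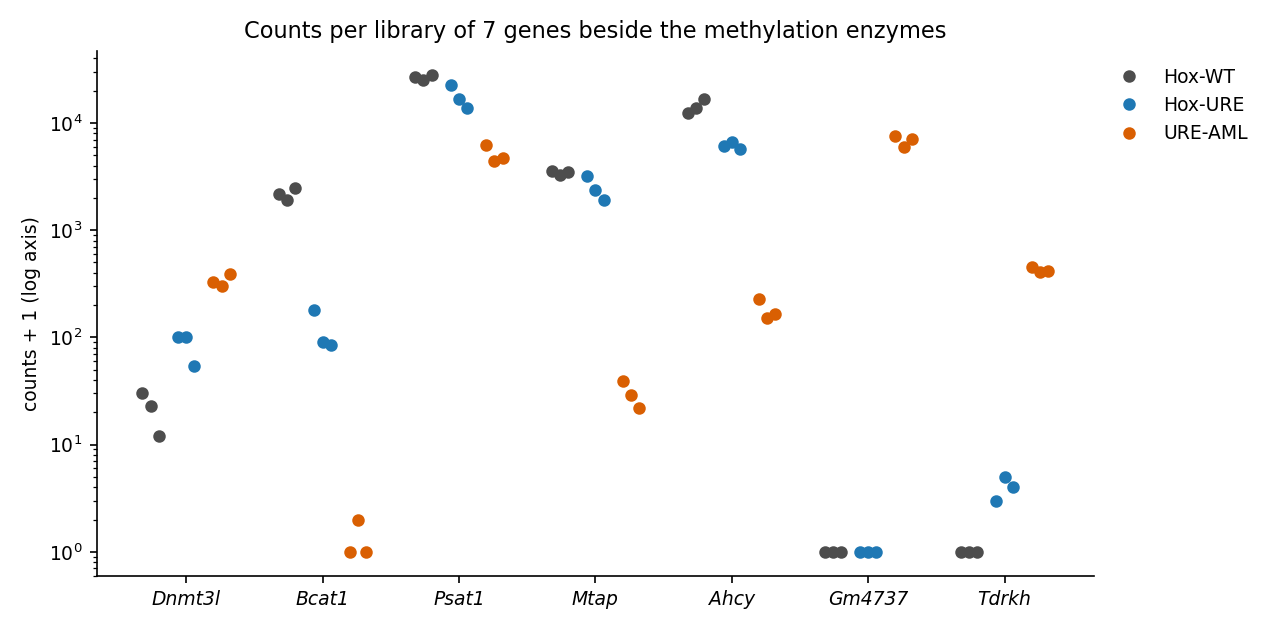
Counts plus 1 per library, on a log axis, of 7 genes described beside the methylation enzymes, with 3 libraries per line. *Dnmt3l* stood in 3 separate groups, *Bcat1* was at 0 or 1 in URE-AML, and *Gm4737* had 5900 to 7510 counts in URE-AML and 0 in both Hox lines, while *Ahcy* was at 150 to 226 in URE-AML.

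Methylation draws on S-adenosylmethionine. Of 17 genes of methyl donor metabolism, 1 was called higher and 5 lower in the progenitor pair, 0 and 7 in the leukemic pair, and 1 and 5 in the URE-deleted pair, with medians of -0.27, -0.33 and -0.32. In either direction 35.3%, 41.2% and 35.3% were called, beside 37.2%, 43.2% and 42.7% of all genes tested. Called lower were 29.4%, 41.2% and 29.4%, beside 15.9%, 20.2% and 22.4%. *Mtap*, which salvages methionine from the by-product of polyamine synthesis, had 3568, 3266 and 3453 counts in Hox-WT, 3196, 2362 and 1898 in Hox-URE and 38, 28 and 21 in URE-AML. It was lower in URE-AML by 6.61 ± 0.18 on the log2 scale (adjusted p = 1.91e-09). *Sms*, spermine synthase, fell by 1.72 ± 0.10 in Hox-URE and 2.34 ± 0.11 in URE-AML (adjusted p = 6.51e-07 and 4.14e-08), and between the URE-deleted lines it was at -0.62, a call lost (-0.52) when a processed copy with the same sequence was added to it. *Ahcyl2*, a relative of *Ahcy*, fell by 2.71 ± 0.13 and 0.88 ± 0.12 (adjusted p = 1.4e-07 and 0.000127).

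*Ahcy*, which hydrolyses the S-adenosylhomocysteine left by every methyl transfer, had 461, 491 and 579 CPM in Hox-WT, 220, 277 and 290 in Hox-URE and 9.12, 7.13 and 6.99 in URE-AML. *Gm4737*, a copy of it on chromosome 16 (46152985 to 46155077) that is 99.7% identical over 2083 bases, was at 0 in both Hox lines and had 303, 281 and 303 CPM in URE-AML. Taken alone, *Ahcy* was at -0.96 ± 0.14 in the progenitor pair and -6.04 ± 0.18 in the leukemic pair (adjusted p = 0.000281 and 2.71e-09). Summed with *Gm4737*, it was at -0.96 and -0.75 (adjusted p = 0.000131 and 0.000488), and at 0.21 between the URE-deleted lines in place of -5.08 (adjusted p = 0.18). At the summed level, both URE-deleted lines stayed under Hox-WT. The counts of this list are of genes taken alone, and with *Ahcy* and *Sms* summed with their copies, the 5 lower calls of the URE-deleted pair were 3 and the median there was -0.14.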

How the data were processed

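Poly-A RNA of 3 lines, 3 libraries each, was sequenced from stranded libraries. Reads were quantified by the authors with salmon on GRCm38 and collapsed from transcripts to genes with tximport. Estimated counts, written as whole numbers and unscaled, are the unit of the deposited table. The version, the annotation release and any length scaling were not given in the sources used here. A shift in transcript use may therefore move a count without a change in molecules.

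Lines came from the sample labels. All 9 libraries entered 1 fit in edgeR 4.0.16 (R 4.3.3), with TMM scaling, filterByExpr at a minimum count of 10 (13082 genes kept) and line as the only factor. Each pair of lines was tested with a two-sided quasi-likelihood F test, with Benjamini-Hochberg adjustment over all genes tested. The SE is the absolute log2 fold change over the square root of F. Thresholds were those of the study, whose own test was DESeq2. Levels per kilobase used union exon length from GENCODE M21 (54094 of 54347 identifiers found). Near-identical copies were transcripts of other genes matched by blastn 2.17.0+ at 95% identity or more over at least 300 bases on the same strand. The 5 genes with copies at 1 CPM or more were refitted as sums, chosen after the data were seen. Sequences are from RefSeq (GRCm38.p6). The fit was tested on simulated data.

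The 10 genes were all named. Of the other lists, the 3 called genes of largest change per direction and comparison with a mean of at least 1 CPM could be named, and any gene of a list of 13 or fewer. The rule for the 10 genes uses their symbols alone, but these genes and the lists were proposed with earlier results of these data known. *Gm4737*, *Cdkn2a*, *Cdkn2b* and some genes in longer lists were named after their values were seen. Some genes of the lists are counted but not reported here by name.

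Alternatives were other scalings (RLE, upper-quartile, library size only), 2 other filters, the 6 libraries compared alone, DESeq2 1.42.0, a block for the replicate number, no fold threshold, glmTreat against a fold change of 1.5 and leaving out each library.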

Additional observations from a re-analysis of the deposited data

How the results depend on the processing

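Of 114 recomputed counts of called genes, 109 stayed within 1.5 times the value reported. No gene of the 10 was called in URE-AML against Hox-URE by glmTreat (0, against 3). The genes of the 8 other lists called numbered 49, 53 and 48 in the 3 comparisons, 83, 81 and 79 with no fold threshold, and 33 in URE-AML against Hox-WT by glmTreat. Leaving out 1 library gave 6, 5 to 6 and 2 to 3 of the 10 genes and 47 to 54, 50 to 54 and 44 to 50 of the lists. Among single genes, glmTreat also lost *Dnmt1* and *Uhrf1* in Hox-URE against Hox-WT (adjusted p = 0.162 and 0.0937). *Dnmt1* was called in URE-AML against Hox-WT under upper-quartile scaling (-0.59), with no fold threshold (-0.55), without Hox-WT replicate 1 (-0.61) and without URE-AML replicate 3 (-0.65). *Tet1* was not tested where 10 counts in every library were required. In URE-AML against Hox-URE, *Tet3*, at 0.03, turned to -0.0033 and -0.085 without Hox-URE replicates 2 and 3 and to -0.041 without URE-AML replicate 2. *Idh1*, at -0.18, ranged from -0.42 without Hox-URE replicate 1 to 0.018 without replicate 2. Summed with their copies, *Ahcy* turned to 0.21 and *Tdg* to 0.052 there, and the lower calls among genes of methyl donor metabolism went from 5 to 3. Library size alone moved the median of all genes by 0.11 in that comparison. With the replicate number as a block, 6, 5 and 3 of the 10 genes and 49, 53 and 48 of the lists were called. The numbers do not pair the libraries by the labels, and same-numbered libraries correlated at 0.0995 to 0.271, 0.0100 to 0.0844 and 0.0444 to 0.0923 in their deviations from the line means. Each correlated best with its own number in 6, 5 and 6 of 6 libraries, a hint from the data and not the design. Depth limits *Tet1*, *Tet2* and *Wt1*, which had at most 216 counts in a library.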

Other observations

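Germline genes that are kept silent by promoter methylation in most somatic cells stayed off in large part. Of 20 such genes, 14 were at 0 in all Hox-WT libraries, 15 in all Hox-URE libraries and 13 in all URE-AML libraries, and 5 passed the filter, which a gene can do through 1 line alone. Of these 5, 3 were called higher and 2 lower between Hox-URE and Hox-WT, and 2 and 1 in each of the other comparisons. *Ddx4*, a germ cell helicase gene, had a mean of 1.92 CPM in Hox-WT and was at 0 in both other lines. *Tdrkh*, a gene of the piRNA pathway, had 0 counts in Hox-WT, 2, 4 and 3 in Hox-URE and 456, 405 and 413 in URE-AML, at least 171-fold above Hox-WT, and passed the filter through URE-AML alone. Imprinted genes, whose parental copies differ in methylation, were read beside them. *Peg10* and *Sgce*, adjacent imprinted genes on chromosome 6 that are expressed from the paternal copy, were at 0 to 2 counts in all 6 Hox libraries and had 204 to 325 and 475 to 538 in URE-AML. *Peg13* ranged from 1545 to 1658 counts in Hox-WT and from 1573 to 2708 in Hox-URE, and was at 84 to 130 in URE-AML, where it fell by 3.69 ± 0.14 on the log2 scale against Hox-WT (adjusted p = 1.48e-08). *Gnas* was higher in both URE-deleted lines, by 1.45 ± 0.29 and 1.10 ± 0.29 (adjusted p = 0.00217 and 0.00836). Of 10 imprinted genes that passed the filter out of 27 in the table, 5 were called higher and 0 lower between Hox-URE and Hox-WT, 6 and 2 between URE-AML and Hox-WT, and 3 and 4 between URE-AML and Hox-URE. Over all genes tested, 21.3% were called higher and 15.9% lower, 23% and 20.2%, and 20.4% and 22.4%. *Peg10* and *Sgce* passed the filter through URE-AML alone, so that these counts say nothing of imprinted genes at large. DNA methylation was not measured, and its part in these differences was not tested.

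The methionine salvage gene *Mtap* lies on chromosome 4 (89137122 to 89181081, GRCm38), next to the cell cycle inhibitor genes *Cdkn2a* (89274471 to 89294653) and *Cdkn2b* (89306299 to 89311039), which were chosen after the values of *Mtap* were seen. *Cdkn2a* had 230, 329 and 345 counts in Hox-WT, 276, 447 and 498 in Hox-URE and 11, 12 and 14 in URE-AML, and fell by 4.31 ± 0.38 on the log2 scale in URE-AML against Hox-WT (edgeR adjusted p = 5.59e-06). *Cdkn2b* had 7, 5 and 6 counts in Hox-WT, 227, 196 and 227 in Hox-URE and 2, 2 and 8 in URE-AML. *Cdkn2b* was at -0.30 in that comparison (adjusted p = 0.662). Against Hox-URE, the 3 neighbours were lower in URE-AML by 6.36, 5.05 and 5.71 on the log2 scale, with a few reads left for each. The copy number of the region was not measured.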
